A study of Homo sapiens with 60 samples.

Results

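Sagunja-tang is a traditional Korean herbal formula, usually made from ginseng, Atractylodes rhizome, Poria and licorice. Its response in SW1783 cells, an established human astrocytoma line, was measured with 6 of the 60 RNA sequencing libraries of a series that gave this line water extracts of medicinal plants and formulas. The 6 libraries were chosen by their labels alone: 3 came from cells given the water extract of Sagunja-tang at 500 µg/mL, its highest dose, and 3 from cells given vehicle, 0.1% DMSO by the sample labels. Both groups were collected after 24 h. The series description gives the vehicle as 2% DMSO, and no label gives the DMSO content of the extract-treated cells. What went into the extract is not stated in the sources used here. All cells were of 1 line, and no label says that replicates came from separate cultures, so each p-value measures only the spread between these libraries.

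The sample codes place the vehicle libraries in a set of their own, while the Sagunja-tang libraries share a code with those of Samul-tang, another formula. In the comparison with vehicle, the treatment and this set therefore cannot be told apart. The same 3 libraries at 500 µg/mL were for that reason also read against libraries of other extracts. These were 2 libraries of Samul-tang at 20 µg/mL, which share the code, 14 libraries of Cnidii Rhizoma, Rehmanniae Radix Preparata, Cinnamomi Cortex, Astragali Radix and Samul-tang at 20 µg/mL, and the 14 libraries of the same 5 extracts at 500 µg/mL. The 3 libraries each of Sagunja-tang at 100 and 20 µg/mL gave the levels at lower doses.

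NF-kB is a family of transcription factor dimers held in the cytoplasm by inhibitor proteins. When an upstream kinase complex is activated, the inhibitors are degraded and the dimers enter the nucleus. There they raise transcription of chemokines, cytokines and adhesion molecules, and also of their own inhibitors, which end the response. In astrocytes and glioma cells this pathway is known for the release of neutrophil-attracting chemokines and interleukin 6. Type I interferon signalling is a separate arm in which STAT2 and IRF9 act on a short promoter element of antiviral genes.

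Promoters of 9 chemokine, cytokine and inhibitor genes that rose are shown first because several of them carry the same short site. Each line gives 80 bases of the RefSeq promoter (GRCh38.p14), 5′ to 3′ on the strand of the gene, from base −110 to base −31 before the start of transcription. Capitals mark matches to the NF-kB consensus on either strand, and overlapping matches run together. CXCL8 holds no full match in its stretch, where the letters tggaatttcc miss the consensus at their first base only.
CXCL1 (chr4:73869283-73869362, plus strand): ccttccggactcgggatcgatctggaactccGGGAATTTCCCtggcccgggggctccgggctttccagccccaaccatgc
CXCL2 (chr4:74099226-74099305, minus strand): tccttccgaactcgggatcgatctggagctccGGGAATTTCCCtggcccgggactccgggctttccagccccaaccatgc
CXCL3 (chr4:74038720-74038799, minus strand): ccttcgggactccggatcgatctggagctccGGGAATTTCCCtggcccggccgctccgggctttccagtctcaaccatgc
CXCL5 (chr4:73998708-73998787, minus strand): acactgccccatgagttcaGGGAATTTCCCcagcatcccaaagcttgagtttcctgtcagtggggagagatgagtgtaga
CXCL6 (chr4:73836568-73836647, plus strand): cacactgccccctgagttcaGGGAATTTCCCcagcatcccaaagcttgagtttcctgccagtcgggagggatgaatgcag
CXCL8 (chr4:73740459-73740538, plus strand): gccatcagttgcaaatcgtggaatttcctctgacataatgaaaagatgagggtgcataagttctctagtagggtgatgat
IL6 (chr7:22727090-22727169, plus strand): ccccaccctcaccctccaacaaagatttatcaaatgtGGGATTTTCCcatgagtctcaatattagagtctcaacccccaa
NFKBIA (chr14:35404780-35404859, minus strand): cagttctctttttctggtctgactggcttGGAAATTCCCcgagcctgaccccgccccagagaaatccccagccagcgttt
TNFAIP3 (chr6:137867149-137867228, plus strand): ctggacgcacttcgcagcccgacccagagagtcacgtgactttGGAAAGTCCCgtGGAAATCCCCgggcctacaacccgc

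The CXC chemokine genes lie together on chromosome 4, and CXCL1, CXCL2, CXCL3, CXCL5 and CXCL6 each hold the letters GGGAATTTCC in their stretch. Those letters, picked after the matches had been seen, occurred in 51 of all 35116 RefSeq promoters of 300 bases (0.145%) and in 8 of the 142 promoters of genes that were at least 2-fold higher at 500 µg/mL (5.63%). The 8 include the promoters of CXCL1, CXCL2, CXCL3, CXCL5 and CXCL6, from which the letters were taken. Most of that share was therefore fixed in advance. The wider NF-kB consensus occurred in 11.3% of all promoters, in 13.3% of the 16418 promoters of genes tested, in 34 of the 142 promoters of at least 2-fold higher genes (23.9%) and in 13 of the 67 promoters of at least 2-fold lower genes (19.4%). The AP-1 site TGANTCA, searched on both strands, occurred in 7.71% of all promoters and in 5.56% of those of genes tested. It occurred in 9.86% of those of the higher genes and in 11.9% of those of the lower genes. These matches describe letters and say nothing on whether a factor was bound.

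RSAD2 and IFIT3, both interferon response genes, are shown for the interferon-stimulated response element, a pair of GAAA letters set apart by 2 bases, which was also searched on both strands. Capitals mark its matches. The RSAD2 stretch runs from base −170 to base −91 and the IFIT3 stretch from base −110 to base −31, each at the second start site listed in RefSeq. The stretches shown are those with matches: at the first start site, the same stretch held 0 matches for each gene. The first IFIT3 promoter held matches outside that stretch, at bases −156 and −122.
RSAD2 (chr2:6877607-6877686, plus strand): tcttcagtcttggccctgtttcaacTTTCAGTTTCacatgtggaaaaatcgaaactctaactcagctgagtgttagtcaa
IFIT3 (chr10:89332419-89332498, plus strand): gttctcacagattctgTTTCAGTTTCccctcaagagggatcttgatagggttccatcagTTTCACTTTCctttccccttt

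Of the 41 promoters of the interferon response list, 24 held this element (58.5%), against 3.57% of all promoters. It occurred in 3.07% of the promoters of genes tested, in 14.8% of those of at least 2-fold higher genes and in 4.48% of those of at least 2-fold lower genes.

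The 6 libraries held 23366552 to 26969636 expected counts each and between 22864 and 23506 genes with a count. Levels below are in CPM, expected counts scaled to a common library size with TMM factors over the 12 libraries of vehicle and the 3 Sagunja-tang doses, and are comparable between libraries but not between genes of different length. Defining astrocyte markers were at or near 0 in both groups: GFAP, S100B, AQP4, ALDH1L1, SLC1A2, SOX2, OLIG1, OLIG2 and FABP7 were all under 1 CPM in the 6 libraries, though each had a count in at least 1 of them. The astrocyte name is that of the line and is not borne out by these markers. The 9 other markers of the 18 listed, among them VIM, CD44 and CHI3L1, were at 1 CPM or more in all 6 libraries. So were 10 of the 12 fibroblast and smooth muscle markers. Of the 16 leukocyte markers, 12 were under 1 CPM in all 6 libraries, and TYROBP, FCGR3A and CD3E were at 0. The summed level of the leukocyte markers ran from 165 to 179.7 CPM in vehicle and from 166.7 to 176.8 CPM at 500 µg/mL. Genes of low GC content tended to be higher and genes of high GC content lower at 500 µg/mL. The median log2 fold change was 0.12 in the fifth of genes with the lowest GC content and −0.14 in the fifth with the highest. A fit with the GC trend of each library removed is given for some of the calls and lists that it changed. Where it is not given, a call was not always kept.

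In the comparison with vehicle, edgeR's quasi-likelihood test with Benjamini-Hochberg adjustment was applied to 15754 genes, and a gene was called at an adjusted p under 0.05. It called 6478 genes, or 41.1% of those tested, with 3219 higher (20.4%) and 3259 lower (20.7%). Most of these differences were small: 194 genes were called and at least 2-fold higher (1.23%), and 80 were called and at least 2-fold lower (0.508%). The median log2 fold change of all genes tested was 0.00. Each list of genes below is read against these shares.

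The neutrophil-attracting CXC chemokines, which carry a glutamate-leucine-arginine motif and signal through CXCR1 and CXCR2, stood at the top of the response. Of the 7 listed, 6 passed the filter on low counts and all 6 were called higher, each at least 2-fold, with a median log2 fold change of 4.51. CXCL1, CXCL3 and CXCL6 would not have passed that filter without the libraries at 500 µg/mL, so their difference was built into their entry. The seventh, PPBP, had no count in the 6 libraries. CXCL1, CXCL2 and CXCL3 are close copies of each other, and the estimated counts may divide shared reads among them.

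CXCL1 stood at 0.345, 0.358 and 0.0801 CPM in the 3 vehicle libraries and at 18.1, 16.3 and 17.6 CPM in the 3 libraries at 500 µg/mL. The 2 groups were far apart, with a log2 fold change of 6.02 ± 0.18 (SE, n = 3 libraries a group; adjusted p = 6.21e-16, edgeR). CXCL8, the most abundant chemokine of the set in counts, stood at 12.1, 11.8 and 8.97 CPM in vehicle and at 434, 426 and 385 CPM at 500 µg/mL (log2 fold change 5.24 ± 0.09, adjusted p = 3.57e-09). The third vehicle library was the lowest of its group for both genes, and no treated library came near the vehicle range. CXCL2, CXCL3 and CXCL5 showed the same picture, at 0.398 to 0.882 CPM over their vehicle libraries and 10.6 to 14.04 CPM over their treated ones. Their log2 fold changes were 4.43, 4.58 and 3.94. CXCL6 remained a rare transcript, at 0 to 0.0795 CPM in vehicle and at 0.725, 0.967 and 0.673 CPM at 500 µg/mL, and it was the member that DESeq2 did not call.

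Among the other chemokines, 17 listed and 6 tested, CCL2 and CCL5 rose and CX3CL1, CXCL12 and CXCL16 fell. CCL2, which draws monocytes, stood at 37.5, 36.9 and 35.9 CPM in vehicle and at 128, 119.5 and 118.7 CPM at 500 µg/mL, a log2 fold change of 1.73 ± 0.04 (edgeR adjusted p = 2.58e-17). CCL5, a T cell chemoattractant, went from 2.11 to 3.76 CPM to 5.00 to 5.47 CPM. CX3CL1, a membrane-bound chemokine read by microglia, moved the other way, from 3.18, 3.42 and 3.00 CPM to 1.45, 1.77 and 1.39 CPM (log2 fold change −1.06 ± 0.17, adjusted p = 3.6e-05). The falls of CXCL12 and CXCL16 were small, at −0.22 and −0.15 on the log2 scale, and neither was called by DESeq2. The edgeR call of CXCL16 was lost when any 1 of the 6 libraries was left out (adjusted p from 0.0528 to 0.218). It was also lost with the GC trend removed (−0.05, adjusted p = 0.551). That of CXCL12 was lost without vehicle replicate 2 (adjusted p = 0.118), vehicle replicate 3 (0.0662) or treated replicate 3 (0.141).

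**Figure D1:**
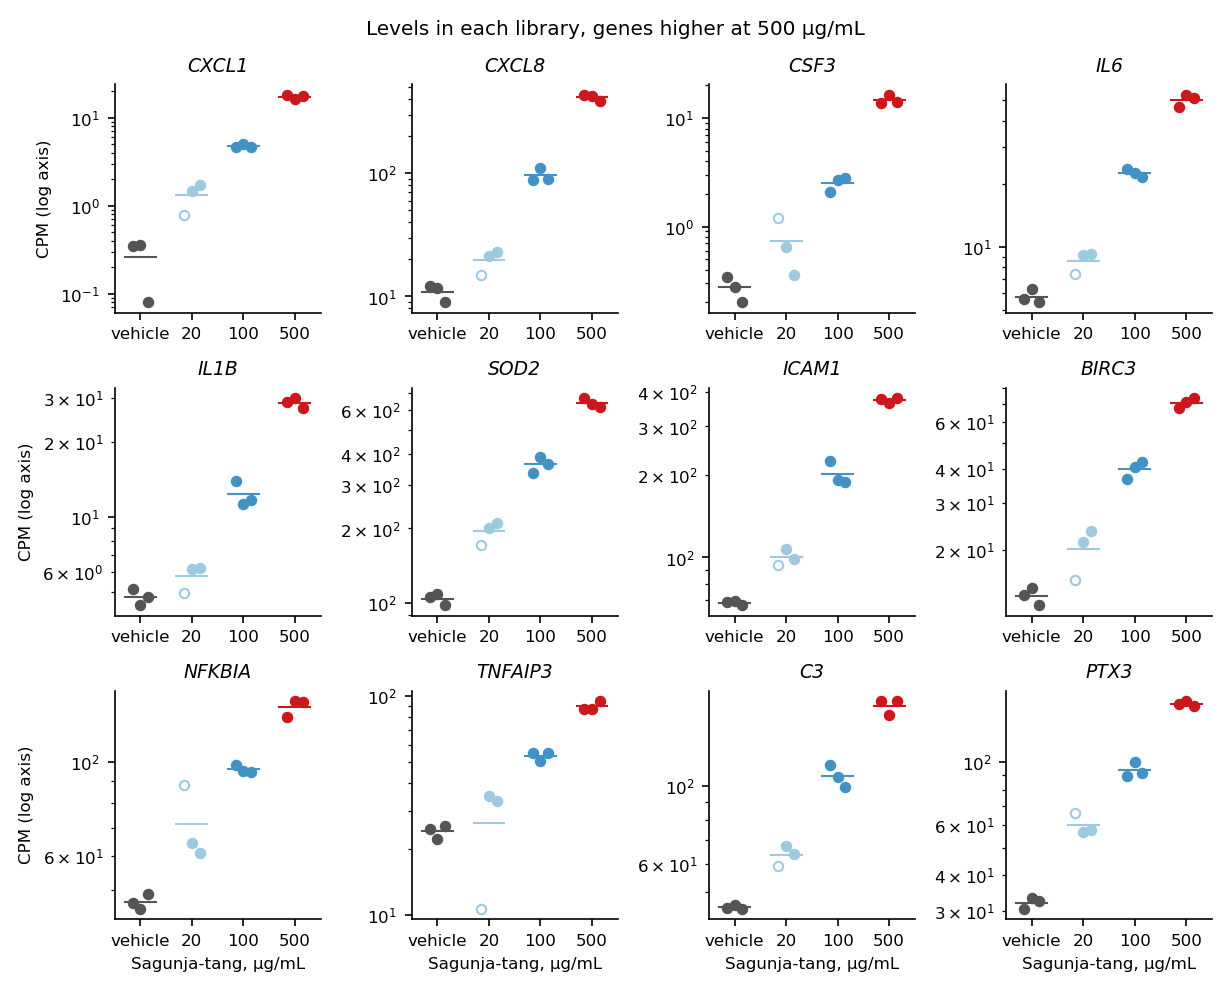
Level in CPM (log axis) of 12 genes that rose at 500 µg/mL, in each library of vehicle and of Sagunja-tang at 20, 100 and 500 µg/mL; each point is 1 library, lines are group means, and the open point marks the library at 20 µg/mL that stands apart. CXCL8 ran from 8.97 to 12.1 CPM in vehicle and from 385 to 434 CPM at 500 µg/mL, with the libraries at 100 µg/mL between the groups.

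Interleukins and colony-stimulating factors followed the chemokines, with 13 of 18 tested members higher and 1 lower, out of 22 listed, at a median log2 fold change of 0.86. The member that fell was CLCF1 (−0.34), which stood at 0.20 against Samul-tang at 20 µg/mL (adjusted p = 0.0727). The granulocyte factor CSF3 was nearly silent in vehicle, at 0.345, 0.278 and 0.200 CPM, and reached 13.6, 16.4 and 13.9 CPM at 500 µg/mL (log2 fold change 5.70 ± 0.17, edgeR adjusted p = 9.95e-16). CSF2, the granulocyte-macrophage factor, went from at most 0.153 CPM to 3.42, 4.04 and 3.80 CPM (5.09 ± 0.28). Both passed the filter on low counts through the treated libraries alone. CSF1, the macrophage factor that these cells already made at 138 to 152 CPM, rose by a far smaller amount, to 178 to 182 CPM (log2 fold change 0.32).

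IL6 stood at 5.67, 6.28 and 5.45 CPM in vehicle and at 46.6, 53.1 and 51.1 CPM at 500 µg/mL (log2 fold change 3.11 ± 0.07, adjusted p = 1.96e-17). The interleukin 1 genes rose together on the log2 scale, IL1B by 2.58 ± 0.07 from 4.41 to 5.14 CPM to 27.2 to 29.8 CPM, and IL1A by 2.54 ± 0.20 from 0.498 to 1.15 CPM to 4.67 to 5.15 CPM. IL1RN, which encodes their natural antagonist, stayed at or below 0.0420 CPM in the 6 libraries and was not tested. IL32, a cytokine without a mouse counterpart, went from 7.67, 8.54 and 7.73 CPM to 36.4, 38.01 and 35.5 CPM. Every treated library lay above every vehicle library for IL6, IL1A, IL1B and IL32.

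IL11 and LIF, relatives of interleukin 6, and the alarmins IL33 and TSLP rose less than 2-fold. IL11 stood at 95.5, 95.8 and 100.5 CPM in vehicle and at 188, 191 and 185 CPM at 500 µg/mL (log2 fold change 0.95 ± 0.04). LIF, which uses the same signalling receptor subunit, rose by 0.87, IL33 by 0.85 and TSLP by 0.78. The gene for tumor necrosis factor itself did not pass the filter on low counts: TNF stood at 0 to 0.0401 CPM in vehicle and at 0.483, 0.420 and 0.277 CPM at 500 µg/mL, and no test was made. In the fit with the 5 extracts at 500 µg/mL it did pass, at a log2 difference of 4.79 (edgeR adjusted p = 6.55e-06), through the same 3 treated libraries.

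Of 17 tested ligands and receptors of the TNF superfamily, 8 were higher and 4 lower. TNFSF13B, counted among the higher ones, passed the filter on low counts only through the treated libraries and was not called by DESeq2. TNFRSF9, the costimulatory receptor 4-1BB, stood at 1.53, 1.63 and 1.402 CPM in vehicle and at 7.09, 8.41 and 8.36 CPM at 500 µg/mL (log2 fold change 2.38 ± 0.14, edgeR adjusted p = 3.41e-11). TNFRSF1A, the main receptor for tumor necrosis factor, fell from 214, 206 and 206 CPM to 139.7, 142 and 143 CPM (−0.56 ± 0.03, adjusted p = 4.95e-11), and the decoy receptor TNFRSF10D fell by 0.68. The libraries of the 2 groups did not overlap for any of these receptors, which held for 25.4% of all genes in the higher and 24.7% in the lower direction.

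Of 26 tested Toll-like and interleukin receptors and adaptors, 12 were higher and 4 lower, and none was 2-fold different. IRAK2, a kinase that carries the interleukin 1 and Toll-like receptor signal, stood at 21.7, 21.2 and 20.1 CPM in vehicle and at 40.1, 41.6 and 42.5 CPM at 500 µg/mL (log2 fold change 0.98 ± 0.05). IL7R rose by 0.58, and IL6ST, the shared receptor subunit for interleukin 6 and LIF, by 0.33. The accessory chain IL1RAP fell by 0.29. The signalling receptor IL1R1 (−0.02, adjusted p = 0.746) and the adaptor MYD88 (−0.07, adjusted p = 0.247) were not called. Against the other references this list gave 8 higher and 1 lower (Samul-tang at 20 µg/mL), 10 and 2 (5 extracts at 20 µg/mL) and 8 and 5 (5 extracts at 500 µg/mL). Over all genes tested, the calls against these references were 9.05% higher and 8.99% lower, 15.2% and 14.9%, and 15.6% and 13.7%, so the counts against them are not on the scale of those against vehicle.

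The NF-kB subunits split. NFKB2 and RELB, the pair of the slower non-canonical arm, rose at least 2-fold, and NFKB1 and REL rose less. The call of REL was lost against Samul-tang at 20 µg/mL (0.44, edgeR adjusted p = 0.172). NFKB2 stood at 35.6, 32.1 and 33.2 CPM in vehicle and at 77.0, 76.1 and 76.0 CPM at 500 µg/mL (log2 fold change 1.18 ± 0.04, edgeR adjusted p = 3.17e-14). RELB rose from 21.4, 21.1 and 21.4 CPM to 47.8, 48.6 and 46.1 CPM (1.16 ± 0.05). RELA, the most abundant subunit in vehicle by counts, was lower against vehicle, at 84.9 to 88.9 CPM against 73.2 to 76.6 CPM (−0.23 ± 0.04, adjusted p = 5.46e-05). That fall was not found against any other reference: the log2 difference of RELA was 0.08 against Samul-tang at 20 µg/mL, 0.00 against the 5 extracts at 20 µg/mL and −0.07 against the 5 extracts at 500 µg/mL.

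Of the 14 inhibitors and feedback genes of the pathway, 10 were higher, 5 of them at least 2-fold, and 1 was lower. NFKBIA encodes the inhibitor that returns the dimers to the cytoplasm. It stood at 46.5, 45.2 and 49.0 CPM in vehicle and at 127, 139 and 138 CPM at 500 µg/mL (log2 fold change 1.52 ± 0.04, edgeR adjusted p = 6.21e-16). TNFAIP3, the ubiquitin-editing enzyme A20, went from 24.6, 22.2 and 25.4 CPM to 87.1, 87.7 and 94.8 CPM (1.90 ± 0.05). NFKBIZ, a nuclear partner needed for IL6 transcription, rose by 1.97, the cytokine mRNA nuclease ZC3H12A by 1.69 and the A20 partner TNIP1 by 0.86. BCL3, a nuclear coactivator on the same list, fell by 0.26 against vehicle, but was not called with the GC trend removed (adjusted p = 0.163) or against Samul-tang at 20 µg/mL (0.204). The rare member TNIP3 passed the filter on low counts through the treated libraries and was not called by DESeq2.

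Upstream kinases and TRAF adaptors had 12 of 18 members higher and 4 lower. BIRC3, a ubiquitin ligase that both passes on the TNF receptor signal and holds the non-canonical arm off, stood at 13.6, 14.4 and 12.4 CPM in vehicle and at 67.4, 70.9 and 73.5 CPM at 500 µg/mL (log2 fold change 2.39 ± 0.06, edgeR adjusted p = 2.58e-17). TRAF1, which joins it at TNF receptors, rose by 1.19. MAP3K14, the kinase NIK that starts the non-canonical arm, went the other way, from 69.0, 67.2 and 66.4 CPM to 36.6, 31.4 and 33.9 CPM (−0.99 ± 0.05, adjusted p = 3.7e-12). Both directions held against the 5 extracts at 500 µg/mL, at 2.69 for BIRC3 and −0.76 for MAP3K14.

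**Figure D2:**
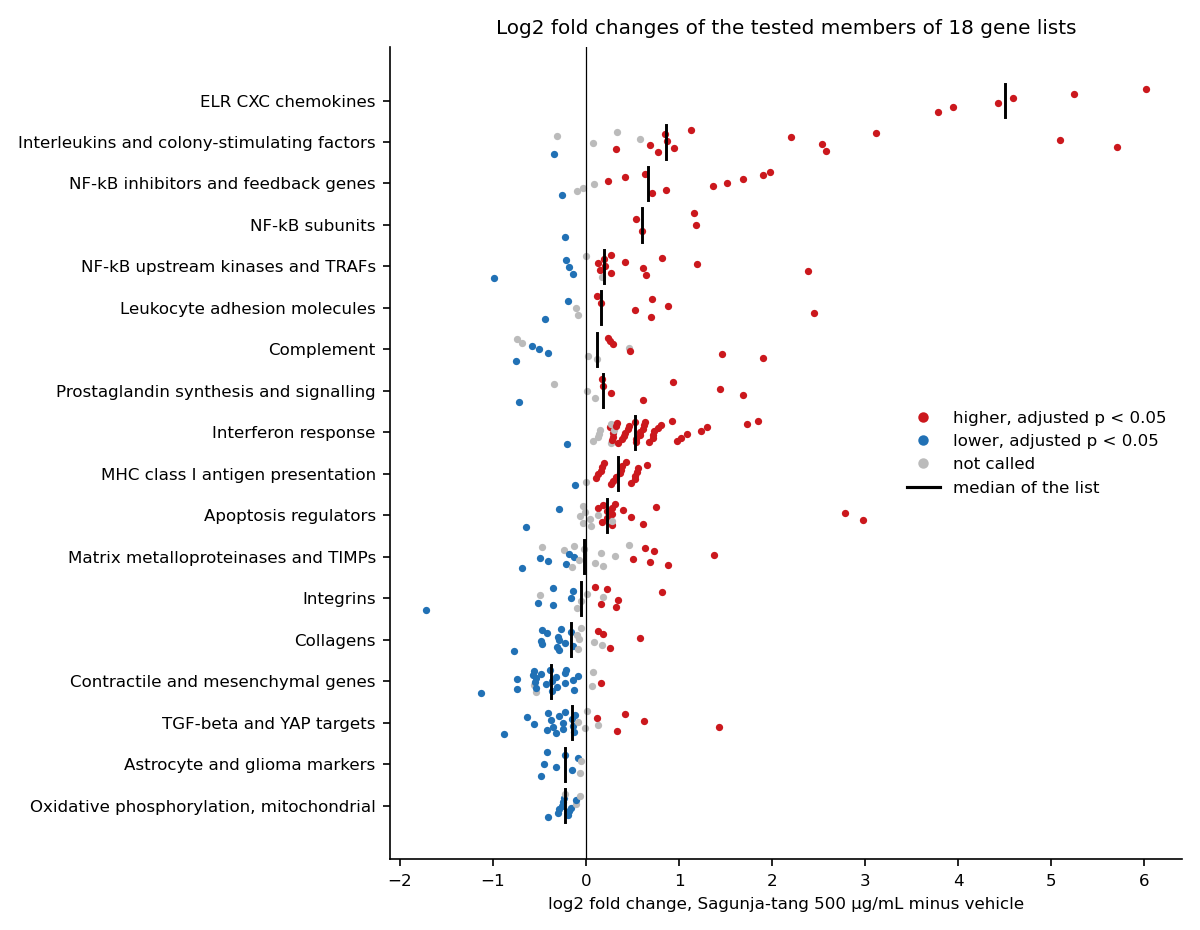
Log2 fold change at 500 µg/mL against vehicle (x axis) of every tested member of 18 gene lists (rows); red points were called higher, blue points called lower, gray points not called, and black bars are list medians. The chemokine list has a median of 4.51 and stands apart from the other lists, whose medians lie under 1.

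Surface and secreted proteins of inflammation were measured next. ICAM1, which binds leukocyte integrins, had the smallest adjusted p of all genes: it stood at 69.1, 69.2 and 66.9 CPM in vehicle and at 377, 365 and 381 CPM at 500 µg/mL (log2 fold change 2.45 ± 0.04, edgeR adjusted p = 8.79e-21). VCAM1 was rare and rose by 0.88, while MCAM fell by 0.44. Over the list of leukocyte adhesion molecules, 7 of 11 tested members were higher and 2 lower against vehicle, and 5 were higher and 2 lower against the 5 extracts at 500 µg/mL. Against the 5 extracts, DESeq2 gave 4 higher and 0 lower. VCAM1 and MCAM were not called there, nor by edgeR with the GC trend removed (adjusted p = 0.095 and 0.158).

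In the complement cascade, C3 and CFB, which form its amplification loop, rose, and C4A, C4B, C5 and CFI fell. C3 stood at 44.9, 45.8 and 44.7 CPM in vehicle and at 174, 159 and 174 CPM at 500 µg/mL (log2 fold change 1.90 ± 0.04, edgeR adjusted p = 4.86e-18). CFB rose by 1.46 ± 0.07. CFI, the protease that breaks down activated C3, fell by 0.41. C4A and C4B are near-identical copies whose reads cannot be separated with certainty, and they fell by 0.50 and 0.75. The call of the rare C5 (−0.58, adjusted p = 0.0144) was lost without vehicle replicate 2 (adjusted p = 0.102) or treated replicate 2 (adjusted p = 0.0625). In all, 6 of 15 tested members were higher and 4 lower.

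PTX3, a soluble pattern recognition molecule, went from 30.5, 33.1 and 32.5 CPM to 159.8, 164 and 157 CPM (log2 fold change 2.32 ± 0.04, edgeR adjusted p = 3.01e-19). SERPINA3, often used as a marker of reactive astrocytes, was under 1 CPM in the 6 libraries and was not called (adjusted p = 0.901). In prostaglandin synthesis, 7 of 11 tested members were higher and 1 lower. PLA2G4C, counted among the higher ones, passed the filter on low counts only through the treated libraries, so its difference was built into its entry. PTGS2, the inducible cyclooxygenase, stood at 85.6, 86.4 and 81.6 CPM in vehicle and at 175, 155 and 157 CPM at 500 µg/mL (0.94 ± 0.04). PTGES, the terminal synthase for prostaglandin E2, rose by 1.69 from a level of 0.460 to 0.636 CPM. SLCO2A1, which takes prostaglandins back into cells, fell by 0.72.

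SOD2, the superoxide dismutase of mitochondria, stood at 106, 108.5 and 97.9 CPM in vehicle and at 671, 635 and 615 CPM at 500 µg/mL (log2 fold change 2.62 ± 0.04, edgeR adjusted p = 2.97e-19). The other superoxide and peroxide enzymes did not share this size: 5 of 16 tested were higher and 3 lower, with SOD1 at 0.21 and catalase (CAT) at −0.24. Kynureninase (KYNU), in tryptophan breakdown, rose by 1.5 and GCH1, which makes the cofactor of nitric oxide synthases, by 1.07. IDO1, the enzyme that opens the kynurenine pathway, stayed under 1 CPM and was not called (0.70, adjusted p = 0.0984).

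Secreted proteases and their inhibitors rose in part. SERPINB2, an inhibitor of plasminogen activators, stood at 43.3, 44.7 and 39.3 CPM in vehicle and at 246, 236 and 225 CPM at 500 µg/mL (log2 fold change 2.47 ± 0.05, edgeR adjusted p = 1.13e-17), and tissue factor (F3) rose by 0.61. Of 15 tested members of the plasminogen system, 8 were higher and 2 lower. The interstitial collagenase MMP1 rose by 0.88 and the macrophage elastase MMP12 by 1.37, whereas the gelatinase MMP2, much more abundant in counts, fell by 0.49. The whole metalloproteinase list was balanced, with 6 of 23 tested members higher and 6 lower.

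Of 25 tested apoptosis regulators, 15 were higher and 2 lower. IER3, an immediate early survival gene, went from 1.92, 1.83 and 1.76 CPM to 14.4, 14.3 and 14.7 CPM (log2 fold change 2.97 ± 0.10, edgeR adjusted p = 7.31e-15). BCL2A1, a BCL2 family inhibitor of apoptosis that is a known NF-kB target, stood at 0.0801 to 0.230 CPM in vehicle and at 1.05, 1.05 and 1.23 CPM at 500 µg/mL. It passed the filter on low counts through the treated libraries and was not called by DESeq2. The list was not one-sided in function, since BID, which promotes apoptosis, also rose (0.76), while BMF, of the same kind, fell by 0.65.

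Other genes with large rises lay outside these pathways. The tight junction gene CLDN1 went from 3.64, 3.90 and 4.97 CPM to 24.0, 23.0 and 23.9 CPM (log2 fold change 2.50 ± 0.09). Cathepsin S (CTSS), a lysosomal protease of antigen processing, rose by 1.97, the Wnt signal enhancer RSPO3 by 1.67, and INHBA, a subunit of activin, by 1.43 from 81.4 to 90.9 CPM to 227 to 244 CPM. Each was called by edgeR, with adjusted p between 1.74e-14 (CLDN1) and 1.69e-06 (RSPO3).

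Interferon response genes rose by small amounts. All 42 listed genes were tested, 34 were called higher, 6 of them at least 2-fold, and 1 was lower, at a median log2 fold change of 0.53. OAS1, a sensor of double-stranded RNA, stood at 0.805, 0.795 and 0.761 CPM in vehicle and at 2.697, 1.81 and 3.37 CPM at 500 µg/mL (1.73 ± 0.24, edgeR adjusted p = 7.07e-06). MX1, a GTPase that blocks viruses, went from 12.04, 12.1 and 12.8 CPM to 30.8, 22.7 and 33.4 CPM (1.24 ± 0.16, adjusted p = 0.00178). In both genes the second treated library was the lowest of its group, and it still lay above the vehicle range.

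The RNA sensor RIGI rose by 1.08 and its relative IFIH1 by 0.68. RSAD2, whose promoter stretch is shown above, rose by 1.85 from 0.278 to 0.307 CPM to 0.883 to 1.29 CPM. It and CMPK2 passed the filter on low counts only through the treated libraries, so their difference was built into their entry. IFIT3, which holds 2 copies of the element in its stretch, rose by only 0.39, and IFIT2 was not called (0.30, adjusted p = 0.372). Of the factors that drive these genes, IRF9 rose by 0.72, IRF1 by 0.45 and STAT2 by 0.42. The call of STAT2 was lost against Samul-tang at 20 µg/mL (adjusted p = 0.611). IFI16, a sensor of DNA, was the member that fell, by 0.21.

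The interferon list kept its direction against each other reference. It gave 30 higher and 1 lower against Samul-tang at 20 µg/mL, 37 and 1 against the 5 extracts at 20 µg/mL, and 36 and 1 against the 5 extracts at 500 µg/mL, with medians of 0.53, 0.46 and 0.54. Higher calls over all genes made up 9.05%, 15.2% and 15.6% of those tested against these references, beside 20.4% against vehicle. The 500 µg/mL libraries are the same in all of these comparisons.

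Class I antigen presentation, through which peptides from the proteasome reach the cell surface, moved alike at a smaller scale. Of 20 tested genes, 18 were higher, none at least 2-fold, and 1 was lower, at a median of 0.34. The lower one, the chaperone CALR (−0.12), stood at 0.00 against Samul-tang at 20 µg/mL and was not called with the GC trend removed (adjusted p = 0.216). HLA-B stood at 346, 350.3 and 336 CPM in vehicle and at 476, 509 and 464 CPM at 500 µg/mL (0.49 ± 0.04, edgeR adjusted p = 3.26e-09). Reads of HLA-B and HLA-C can be exchanged among these similar genes. The peptide transporter TAP1 rose by 0.53, the peptide-trimming enzyme ERAP1 by 0.53 and the immunoproteasome subunit PSMB10 by 0.65. NLRC5, the transactivator of class I genes, was not called (0.00, adjusted p = 0.966).

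**Figure D3:**
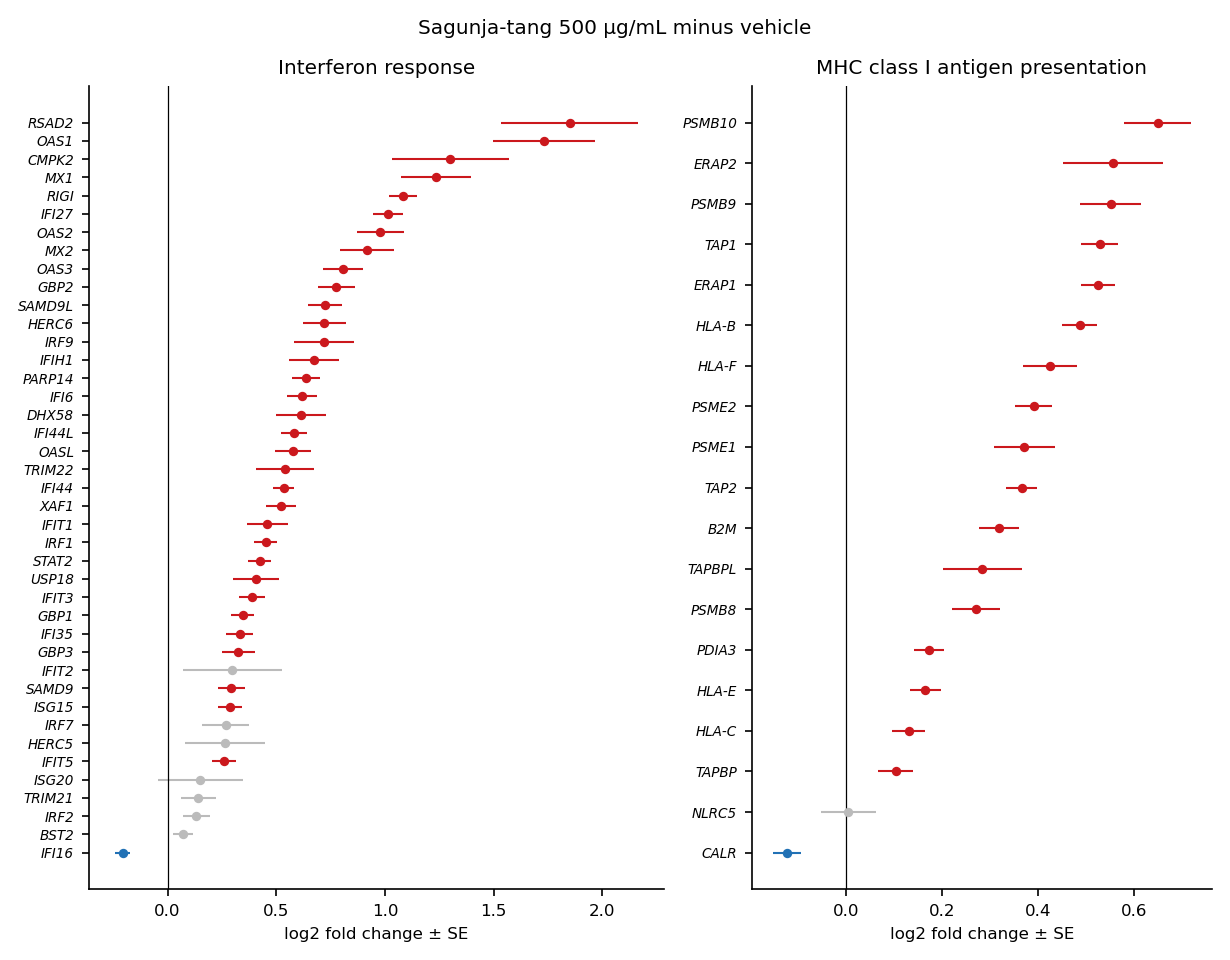
Log2 fold change ± SE at 500 µg/mL against vehicle of 41 interferon response genes (left) and 19 genes of class I antigen presentation (right), 3 libraries a group; red was called higher, blue called lower and gray not called. RSAD2 (1.85), which passed the filter on low counts only through the treated libraries, and OAS1 (1.73) lead the left panel, and all genes of the right panel lie under 1.

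The genes that fell did so by smaller factors. ITGB4, the integrin subunit of hemidesmosomes, stood at 19.3, 19 and 22.2 CPM in vehicle and at 5.64, 5.89 and 6.89 CPM at 500 µg/mL (log2 fold change −1.72 ± 0.09, edgeR adjusted p = 8.77e-12). IFITM10 fell from 6.25, 5.48 and 5.33 CPM to 1.61, 1.64 and 1.82 CPM (−1.75 ± 0.14). The immediate early transcription factor EGR3 fell from 9.62, 9.22 and 8.09 CPM to 3.87, 3.32 and 2.38 CPM (−1.50 ± 0.13). In each of the 3 genes the highest treated library lay well below the lowest vehicle library.

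KRT18 and KRT8, keratins that pair in simple epithelia, fell together. KRT18 stood at 225, 224 and 221 CPM in vehicle and at 103, 110.3 and 103 CPM at 500 µg/mL (log2 fold change −1.08 ± 0.04, edgeR adjusted p = 6.15e-15), and KRT8 fell by 0.87. Of the 10 epithelial markers listed, 7, EPCAM and CDH1 among them, were under 1 CPM in all 6 libraries, and the summed level of the 10 ran from 243.4 to 246.8 CPM in vehicle and from 116.1 to 124.4 CPM at 500 µg/mL. SNAI1, a transcription factor of mesenchymal change, fell by 1.13, from 21.8 to 24.9 CPM to 9.90 to 10.97 CPM. The neuronal tubulin TUBB3 fell by 0.86.

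Further genes past or near a 2-fold fall had varied roles. They were OLFML2B, an extracellular matrix protein (−1.35), SLC7A8, an amino acid transporter (−1.23), LONRF2 (−1.14), the muscle-type adaptor DOK7 (−0.98), the tetraspanin TSPAN18 (−0.97), the Wnt-binding protein SFRP2 (−0.96), ARHGAP44 (−0.95) and SAMD11 (−0.94). SAMD11 fell against vehicle from 77.4, 81.2 and 80.3 CPM to 41.3, 41.8 and 41.7 CPM, but the sign of its difference depended on the reference: it was −0.20 against the mean of the 5 extracts at 500 µg/mL and 0.24 against Samul-tang at 500 µg/mL alone. With the GC trend removed, its difference from the mean of the 5 extracts was −0.07 and was not called (edgeR adjusted p = 0.154).

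Contractile and mesenchymal genes fell as a list, with 21 of 26 tested members lower, 1 of them at least 2-fold, and 1 higher, at a median of −0.38. ACTA2, smooth muscle actin, stood at 143, 134 and 132 CPM in vehicle and at 62.1, 61.7 and 63.5 CPM at 500 µg/mL (log2 fold change −1.13 ± 0.04, edgeR adjusted p = 6.21e-15). TAGLN, an actin-binding protein of smooth muscle, fell by 0.55, the myosin light chain MYL9 by 0.56, the calponin CNN2 by 0.57 and the growth factor receptor PDGFRB by 0.74. The exception was CDH2, the adhesion protein N-cadherin, which rose by 0.16.

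The median of this list was negative against each other reference. It gave 12 lower and 1 higher against Samul-tang at 20 µg/mL (median −0.15), 15 and 2 against the 5 extracts at 20 µg/mL (−0.26), and 12 and 4 against the 5 extracts at 500 µg/mL (−0.19). Lower calls over all genes made up 8.99%, 14.9% and 13.7% of those tested, beside 20.7% against vehicle, so the smaller counts cannot be read as a property of the list. ACTA2 fell in all of these, by 0.73 against the 5 extracts at 500 µg/mL, where TAGLN was not called (−0.17, adjusted p = 0.0544, and −0.19 with 0.0261 without Cinnamomi Cortex). The markers of fibroblasts and smooth muscle, a list that shares ACTA2, TAGLN, PDGFRB and THY1 with this one, summed to 6962 to 7064 CPM in vehicle and 5185 to 5223 CPM at 500 µg/mL. In bulk RNA, fewer cells of a kind and less RNA per cell cannot be told apart.

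**Figure D4:**
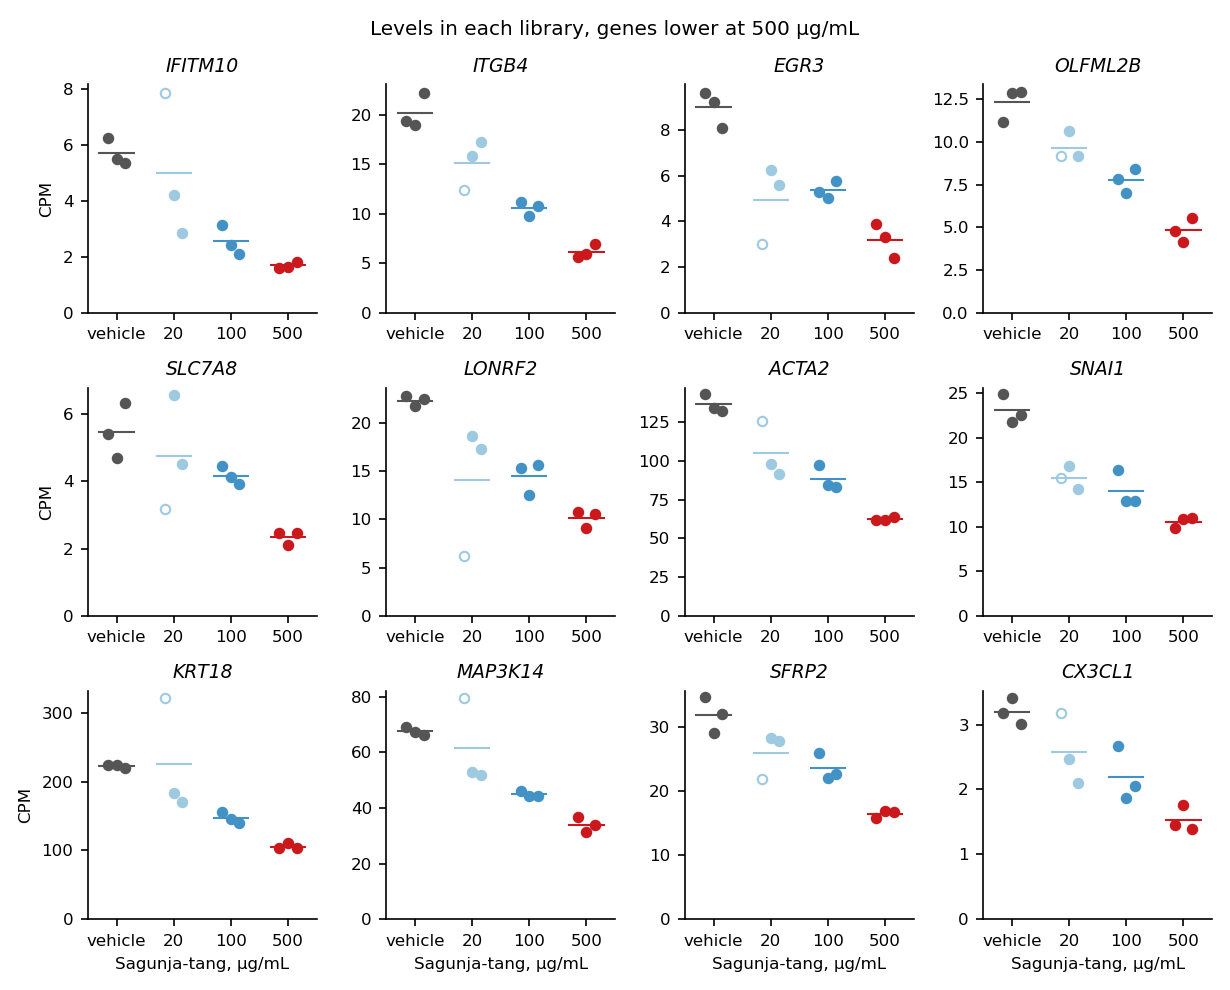
Level in CPM (linear axis from 0) of 12 genes that fell at 500 µg/mL, in each library of vehicle and of Sagunja-tang at 20, 100 and 500 µg/mL; each point is 1 library, lines are group means, and the open point marks the library at 20 µg/mL that stands apart. ACTA2 ran from 132 to 143 CPM in vehicle and from 61.7 to 63.5 CPM at 500 µg/mL.

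Collagens had 13 of 23 members lower and 4 higher, at a median of −0.16. The fibril-forming COL5A1 fell from 2299, 2222 and 2357 CPM to 1359, 1269 and 1407 CPM (log2 fold change −0.77 ± 0.04, edgeR adjusted p = 2.61e-12), while COL1A1 stood at −0.48. COL7A1, of the anchoring fibrils below epithelia, rose by 0.58. Against the 5 extracts at 500 µg/mL the list had 8 lower and 2 higher, or 12 lower and 1 higher without Cinnamomi Cortex, and COL1A1 stood at −0.15 (adjusted p = 0.0491), a call that was lost without any 1 of the 3 treated libraries (adjusted p from 0.12 to 0.162). That call was also lost with the GC trend removed (−0.04, edgeR adjusted p = 0.426).

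Targets of TGF-beta and YAP, which report on matrix tension and wound-type signalling, had 16 of 25 members lower and 5 higher against vehicle, at a median of −0.15. Against the 5 extracts at 500 µg/mL the list had 9 higher and 4 lower at a median of 0.11, but without Cinnamomi Cortex it had 7 higher and 7 lower at a median of −0.05. CCN2, a matricellular target of both pathways, fell from 189, 191 and 185 CPM to 94.2, 103 and 109 CPM against vehicle (−0.88 ± 0.04, edgeR adjusted p = 1.1e-10). It stood at −0.01 against the mean of the 5 extracts (adjusted p = 0.888) and at −0.24 without Cinnamomi Cortex (adjusted p = 0.0108). On the scale of the 17 libraries at 500 µg/mL, CCN2 ran from 95.6 to 111.5 CPM with Sagunja-tang, from 52.4 to 60.9 CPM with Cinnamomi Cortex and from 107.2 to 140.9 CPM over the libraries of the other 4 extracts. The Sagunja-tang range of CCN2 overlapped the lower end of the range of those 4. CCN1, its neighbor in function, was higher than vehicle by 0.62 and than the 5 extracts by 0.53. CCN1 was not called against Samul-tang at 500 µg/mL alone (0.13, edgeR adjusted p = 0.203). TGFB1, the ligand, was lower in both comparisons, at −0.56 and −0.35.

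Astrocyte and glioma markers with a measurable level fell slightly: 7 of 9 tested were lower and 0 higher (edgeR), 6 and 0 with DESeq2, at a median of −0.23, and all 9 log2 fold changes were negative. SOX9, a glial transcription factor, fell by 0.45, the intermediate filament nestin (NES) by 0.49, clusterin (CLU) by 0.42 and the secreted glioma protein CHI3L1 by 0.32. The summed level of the 18 markers ran from 10470 to 10990 CPM in vehicle and from 9224 to 9464 CPM at 500 µg/mL.

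Growth and metabolism lists showed small differences. DNA replication genes had 14 of 28 higher and 0 lower (edgeR), 11 and 0 with DESeq2, and 1 lower at an unadjusted p under 0.05, with the polymerase subunit POLE2 at 0.47. Mitosis genes had 12 of 27 lower and 4 higher against vehicle, with the kinase PLK1 at −0.52 and the proliferation marker MKI67 at −0.43. Against the 5 extracts at 500 µg/mL the mitosis list had 7 higher and 2 lower, or 3 and 2 without Cinnamomi Cortex. MKI67 stood at 0.03 (adjusted p = 0.866) against the 5 and at −0.22 (adjusted p = 0.124) without Cinnamomi Cortex, whose libraries ran from 96.2 to 140.6 CPM. The libraries of the other 4 extracts ran from 235.6 to 358.2 CPM and those of Sagunja-tang from 226.7 to 269.7 CPM. Glycolysis and hypoxia targets had 13 of 28 lower and 2 higher, among them GAPDH, from 4489 to 4838 CPM in vehicle to 3381 to 3528 CPM (−0.43 ± 0.03). With the GC trend removed, the glycolysis list had 8 lower and 5 higher.

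The 13 protein genes of the mitochondrial genome had 10 lower and 0 higher against vehicle with both edgeR and DESeq2, at a median of −0.23, and all 13 log2 fold changes were negative. Against the 5 extracts at 500 µg/mL all 13 differences were again negative, at a median of −0.14. Only 1 was called lower there and 0 higher (edgeR), beside 13.7% lower over all genes. The share of counts from mitochondrial genes ran from 7.132 to 7.434% in vehicle and from 6.464 to 6.916% at 500 µg/mL. Nuclear genes of oxidative phosphorylation had 13 of 29 higher and 1 lower against vehicle, and 2 higher and 2 lower against the 5 extracts at 500 µg/mL (7 and 2 without Cinnamomi Cortex). Cholesterol synthesis had 9 of 24 lower and 3 higher.

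**Figure D5:**
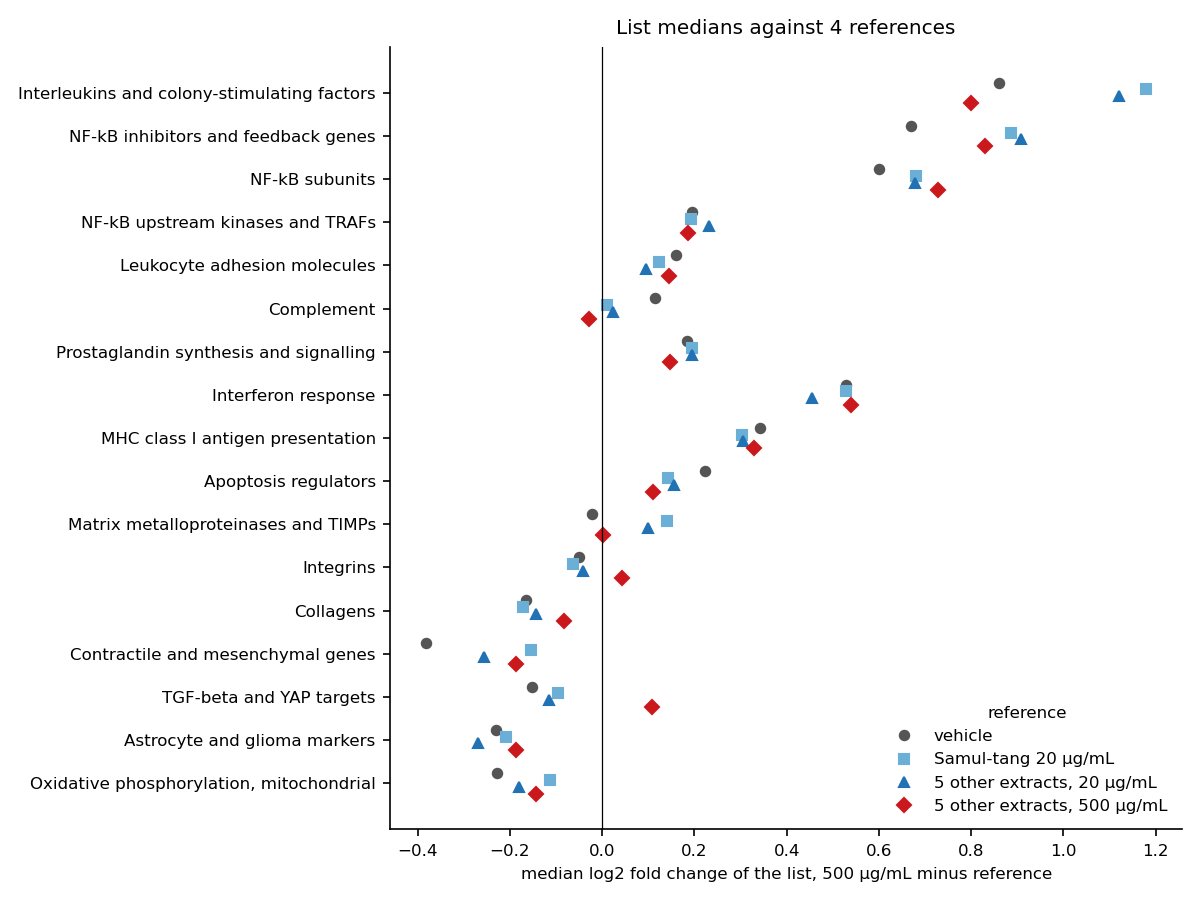
Median log2 fold change of 17 gene lists (rows) for Sagunja-tang at 500 µg/mL against 4 references: vehicle, Samul-tang at 20 µg/mL, 5 other extracts at 20 µg/mL and the same 5 extracts at 500 µg/mL. The interferon medians lie between 0.46 and 0.54 for all 4 references, and the TGF-beta and YAP median runs from −0.15 to 0.11, the upper value with Cinnamomi Cortex among the 5 extracts.

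At lower doses some of these genes took middle values. Of the 194 genes at least 2-fold higher, 102 (52.6%) had every library at 100 µg/mL between the vehicle and the 500 µg/mL libraries, and so did 21 of the 80 at least 2-fold lower genes (26.2%). Over all genes tested, 3.08% were ordered this way upward and 2.99% downward. These shares are not like for like. Such an order requires vehicle and 500 µg/mL libraries that do not overlap, which held for 25.4% of all genes upward and 24.7% downward. The 194 and 80 genes were chosen for a wide gap between those same libraries. CXCL8 stood at 88.5, 111 and 90.0 CPM at 100 µg/mL and at 15.0, 21.4 and 23.0 CPM at 20 µg/mL, against 12.1 CPM at most in vehicle. ICAM1 stood at 224, 192 and 188 CPM at 100 µg/mL and at 93.7, 108 and 99.1 CPM at 20 µg/mL. The treated libraries of both genes were ordered by dose without overlap, and all lay above vehicle. SERPINB2 differed from them at the low end: its 41.5, 46.3 and 45.9 CPM at 20 µg/mL overlapped the vehicle range, while its 115.5, 97.9 and 97.0 CPM at 100 µg/mL did not.

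Replicate 1 at 20 µg/mL stands apart from its group over all genes. For KRT18 it read 321 CPM beside 183 and 171 CPM, for HLA-B 825 CPM beside 387 and 363 CPM, and for TNFAIP3 10.7 CPM beside 34.9 and 33.2 CPM. Without it, KRT18 at 20 µg/mL lay below the vehicle range of 221 to 225 CPM and above the 141 to 156 CPM at 100 µg/mL. ITGB4 stood at 11.2, 9.78 and 10.8 CPM at 100 µg/mL, between vehicle and 500 µg/mL. OAS1 did not separate the upper doses, with 2.27, 1.79 and 1.44 CPM at 100 µg/mL overlapping the 1.81 to 3.37 CPM at 500 µg/mL. CCN2 was as low at 100 µg/mL, at 97.1, 120.2 and 121 CPM, as at 500 µg/mL in one library and above it in the other two.

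The same dose of the 5 other extracts was the reference for what differed between extracts, with no vehicle library in the fit. At 500 µg/mL, Sagunja-tang differed from their mean in 4944 of 16901 genes tested (29.3%), 2634 higher (15.6%) and 2310 lower (13.7%). Against each of the 5 extracts taken alone, 532 genes were called higher in all 5 comparisons (3.15%) and 367 lower in all 5 (2.17%). Both fits use the same 3 libraries at 500 µg/mL.

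For CXCL8, SOD2, IL6 and ICAM1, no library of another extract came near Sagunja-tang. On the scale of these 17 libraries, CXCL8 ran from 393 to 441 CPM with Sagunja-tang and from 6.42 to 15.8 CPM over the 14 libraries of the other extracts (log2 difference 5.30 ± 0.06, edgeR adjusted p = 1.72e-22). SOD2 ran from 626 to 681 CPM against 84.6 to 176 CPM, where the upper end belonged to Cinnamomi Cortex. IL6 ran from 47.3 to 54.3 CPM against 5.04 to 8.204 CPM, and ICAM1 from 373 to 388 CPM against 49.1 to 83.1 CPM. All 6 tested neutrophil chemokines, 14 of 19 interleukins and colony-stimulating factors and 10 of 14 inhibitors and feedback genes were higher by edgeR, with 0, 1 and 0 lower. At an unadjusted p under 0.05 the lower counts were 0 and 1 for the chemokines and the feedback genes, and 0 and 0 with DESeq2. Over the 14 libraries of the other extracts, CXCL6 reached at most 0.120 CPM and TNIP3 0.338 CPM. Both passed the filter on low counts through the Sagunja-tang libraries, so their difference was built into their entry. The same may hold for CSF2 and CXCL1, at most 0.423 and 0.449 CPM in those 14 libraries.

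On the lower side, ITGB4 ran from 5.72 to 7.03 CPM with Sagunja-tang and from 11.6 to 24.2 CPM with the others, and IFITM10 from 1.64 to 1.86 CPM against 2.89 to 8.88 CPM. VIPR1, a receptor for vasoactive intestinal peptide, differed by −1.63 from the mean of the other extracts, which themselves spread from 2.08 to 10.5 CPM. AKR1B10, an aldo-keto reductase and NRF2 target, differed by −1.24. KRT18 did not set Sagunja-tang apart: its 104.6 to 113 CPM lay inside the 73.5 to 229 CPM of the others, since Cinnamomi Cortex stood lower still, at 73.5 to 81.1 CPM.

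NRF2 targets, the genes of the oxidant response, had 14 of 22 lower and 0 higher against the 5 extracts (edgeR and DESeq2 alike, and 15 and 0 at an unadjusted p under 0.05), at a median of −0.32, but 9 higher and 7 lower against vehicle. Without Cinnamomi Cortex 13 were lower and 2 higher, at a median of −0.20. HMOX1, which degrades heme, differed by −1.14 from the mean of the 5 extracts, by −0.32 without Cinnamomi Cortex and by −0.30 from vehicle. Its level ran from 61.1 to 70.1 CPM with Sagunja-tang, from 1353 to 1501 CPM with Cinnamomi Cortex and from 65.4 to 100.7 CPM with the other 4, and it was not called against Samul-tang alone (−0.02, adjusted p = 0.902). The ferritin chain FTL differed by −0.75 from the 5 extracts, by −0.42 without Cinnamomi Cortex and by −0.23 from vehicle; it ran from 885 to 964 CPM with Sagunja-tang, from 3606 to 4106 CPM with Cinnamomi Cortex and from 986 to 1436 CPM with the other 4.

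Chaperones of the endoplasmic reticulum had 15 of 20 higher and 0 lower against the 5 extracts with both tools, all 20 with a positive difference, and 5 higher and 4 lower against vehicle. Metallothioneins and zinc transporters had 9 of 13 higher and 1 lower against vehicle and 8 higher and 1 lower against the 5 extracts, with medians of 0.26 and 0.31. The metal-binding protein MT2A ran from 823 to 1028 CPM with Sagunja-tang and from 141 to 389 CPM with the others (log2 difference 1.72, edgeR adjusted p = 2.03e-16), and rose by 0.90 against vehicle (adjusted p = 0.0034, and 0.0505 with a replicate block). Metallothionein genes are close copies, and reads may be exchanged among them.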

How the data were processed

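RNA was measured in SW1783 cells by directional paired-end sequencing with 100 bp reads. The authors deposited a table of expected counts by gene. The submitters' processing notes name RSEM 1.3.3 and STAR 2.7.3a, the trimmer Trim Galore 0.6.5, FastQC 0.11.9 and the build hg38 (GRCh38), but no gene annotation. The table held 60675 genes and 279 columns, of which 60 matched the sample labels and 219 were not used. The expected counts were rounded; 90.67% were whole already. Of the gene IDs, 56558 were matched to symbols with the table of gene names, and 485 more with GENCODE release 29.

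Genes were filtered with filterByExpr, scaled with TMM and tested with edgeR 4.0.16 (R 4.3.3, robust quasi-likelihood F test, Benjamini-Hochberg over all genes tested, adjusted p under 0.05), on the 6 libraries for the vehicle comparison (4 residual degrees of freedom) and on 17 libraries for the comparison with the mean of 5 other extracts at 500 µg/mL. The SE is the size of the log2 fold change over the square root of F. The fits were checked on simulated counts with known changes. Alternatives were DESeq2 1.42.0, other scalings and filters, each library left out, other references, larger fits, a replicate block and a GC correction. GC content was that of the longest transcript in the reference annotation, known for 99.37% of the genes tested. Promoters of 300 bases came from RefSeq (GRCh38.p14).

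The comparison, its 51 gene lists (978 genes, 854 tested) and its tests were chosen with earlier results of these data known. Genes were named as list members, or as the 15 largest changes in each direction against vehicle and the 5 largest against the other extracts, among called genes whose groups did not overlap and whose higher group averaged 5 CPM or more. Some list members were chosen for the text after their values had been seen. Replicate numbers were not used as pairs: same-numbered deviations of vehicle and treated libraries correlated at 0.005, 0.016 and 0.083. Some members of the lists are counted but not reported by name.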

Additional observations from a re-analysis of the deposited data

How the results depend on the processing

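The vehicle comparison called 6478 genes and kept that count within 1.5 times with relative log expression size factors, library size alone, no filter, DESeq2, the default dispersion fit and the GC correction, the last chosen after seeing the data (5575 called). It fell to 2986 when all 19 groups shared one spread, to 5400 once the library at 20 µg/mL that stands apart was left out of that fit, and to 2881 with Samul-tang at 20 µg/mL as the reference. Library size alone raised the share of calls that were higher from 49.7% to 63.9%. Genes called at least 2-fold higher and lower numbered 311 and 170 with no filter on low counts, where more genes were tested. The at least 2-fold lower genes numbered 39 with DESeq2 and 122 in the fit of all 19 groups without that library. The comparison with the 5 extracts called 2390 genes against Samul-tang at 500 µg/mL alone, with fewer libraries. Leaving out each library in turn gave 5286 to 6493 genes called against vehicle, 193 to 225 at least 2-fold higher and 73 to 110 at least 2-fold lower, and 3388 to 5438 against the other extracts. With a replicate block, the vehicle comparison called 7190 genes and the other-extract comparison 4695; among the genes named, calls were lost under the block for MT2A against vehicle (adjusted p = 0.0505) and for SOD1 and COL1A1 against the other extracts. The sign of RELA turned against Samul-tang at 20 µg/mL (0.081) and the 5 extracts at 20 µg/mL (0.001), as did that of CLCF1 (0.20) and CALR (0.003) against Samul-tang at 20 µg/mL and of SAMD11 (0.24) against Samul-tang at 500 µg/mL. Where no construction is named, the cause was not tested.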
